A study of Sparassis latifolia with 12 samples.

Results

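Of the 13103 mRNAs measured in fruiting bodies of the cauliflower mushroom *Sparassis latifolia*, 72 (0.549%) were far lower in every library of stored fruiting bodies than in any library of fresh ones. They were chosen by their values. The mean FPKM over the 12 libraries had to be at least 10 and under 1000, and the highest of the 9 stored libraries had to reach at most 0.5 times the lowest of the 3 day 0 libraries. FPKM sets the sequenced fragments of a gene against the length of its transcript and the size of the library. The rule also left out 7 mRNAs by identifier, and 1 of these, EVM0000573 (a glutathione S-transferase in the study), met the thresholds. The study reports a higher level of EVM0000573 during storage. Here its FPKM was 334, 796 and 150 on day 0 and 16.7 to 51.3 in the 9 stored libraries. Because of the rule, the fall from day 0 to the stored days is what defined the 72 mRNAs, and it is described here with no test.

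All libraries came from whole fruiting bodies of 1 strain, Minxiu No.1, packed in oriented polypropylene (OPP) film and kept at 4 ℃. There were 3 libraries each from day 0 (fresh), day 8, day 16 and day 24 of storage. The labels put the same 4 ℃ treatment on the day 0 samples. Whether the 3 replicates of a day came from separate packages or fruiting bodies is not stated, and p-values then reflect only how far these samples scatter, part of which may be technical.

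A harvested mushroom no longer receives nutrients from its mycelium. It goes on respiring, loses water, softens and browns, and its mRNAs are made and broken down at new rates. The level of an mRNA in such tissue is set by the balance of transcription and decay, and RNA-seq reads that level as a share of all RNA in the library. In a whole fruiting body, fewer cells that make an mRNA and less of it per cell cannot be told apart. The 72 mRNAs carry EVM identifiers for which the tables used here give no product name, so neither roles nor marker genes of the tissue can be stated, and they are grouped below by how their levels behaved.

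Across the mRNA table, 12636 to 12886 mRNAs per library were above 0 on day 0, 11005 to 11056 on day 8, 10956 to 11061 on day 16 and 11133 to 12789 on day 24. The highest number of day 24 was that of replicate 3, which in this respect lay among the fresh libraries. Summed FPKM over all mRNAs was 666845 to 931532 per library. How many reads lie behind any one value is unknown, since the values are FPKM and not counts. All 72 lowered mRNAs were above 0 in every library, with 0.543 FPKM as the lowest value of any of them. All 72 also passed the filter for the tests (1 FPKM or more in 3 or more libraries), and all 72 would have passed it on the 9 stored libraries alone.

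The rule requires a fall by day 8 that lasts to day 24, so the share of the 72 mRNAs in the transcriptome shows only its size. Their summed FPKM made up 2.26%, 1.67% and 1.995% of the mRNA total in the day 0 replicates. On day 8 the share was 0.290%, 0.340% and 0.185%. It was 0.167%, 0.249% and 0.194% on day 16 and 0.238%, 0.275% and 0.225% on day 24. The median FPKM of the 72 mRNAs was 114, 104 and 87.6 in the day 0 replicates and 10.6 to 17.0 in the 9 stored libraries. Over the 7988 mRNAs in the same window of mean FPKM, the median stayed between 35.1 and 38.2 in all 12 libraries. Whether the deposited FPKM had been scaled between libraries is not stated, and such scaling would itself hold this median level.

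On day 0 the mean FPKM of a lowered mRNA was 29.6 to 1612 (median 110), and 38 of the 72 had a mean of at least 100. As a percentage of the day 0 mean, the level left was 1.12% to 36.3% on day 8 (median 13.8%), 0.836% to 30.3% on day 16 (median 11.6%) and 2.23% to 39.2% on day 24 (median 16.5%). On all 3 stored days, 13 mRNAs were under 10% of their day 0 mean, while 38 were under 10% on none. The depth of the fall thus differed widely among mRNAs that had met the same rule.

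**Figure D1:**
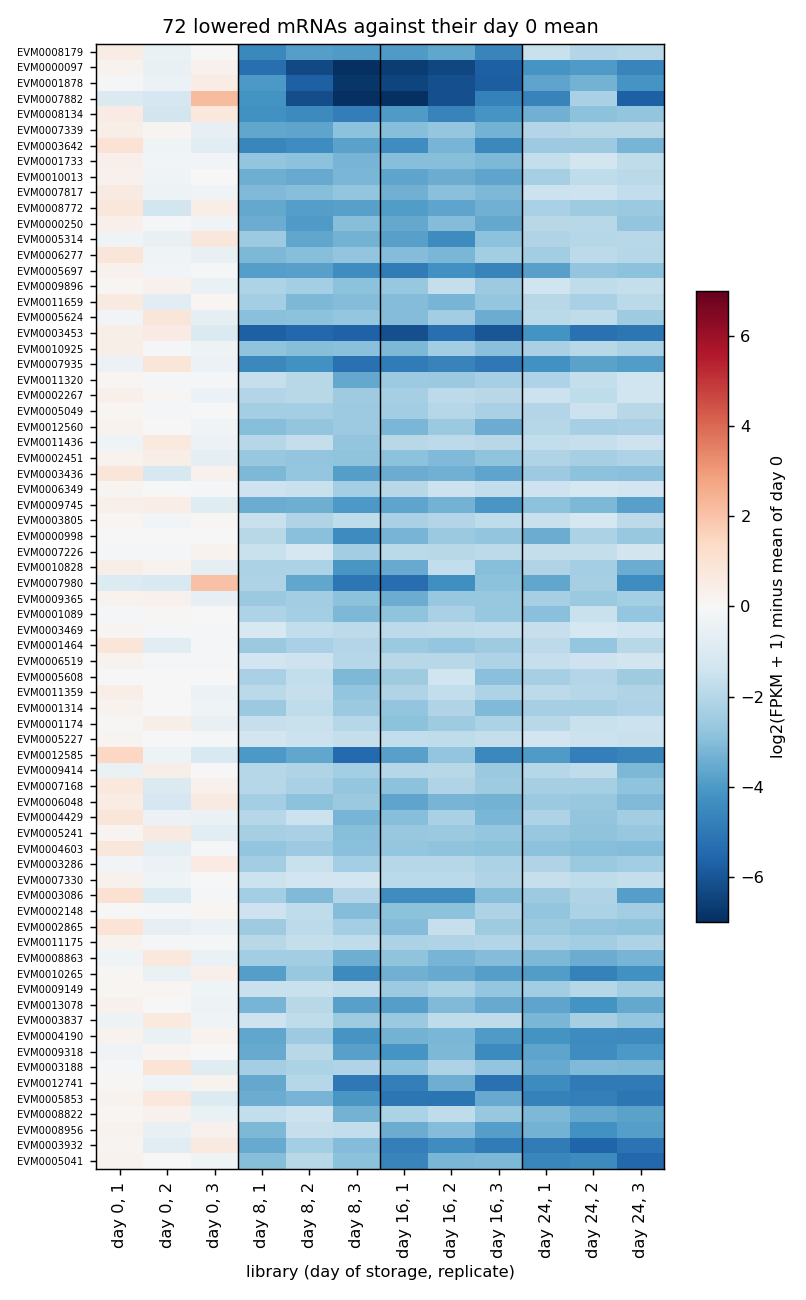
Each row is 1 of the 72 lowered mRNAs and each column a library, with day 0 at the left and day 24 at the right. Colour gives log2(FPKM + 1) minus the mean of the 3 day 0 libraries of that mRNA, and rows run from the largest rise between day 8 and day 24 (top, 2.28) to the largest fall (bottom, -2.24).

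**Figure D2:**
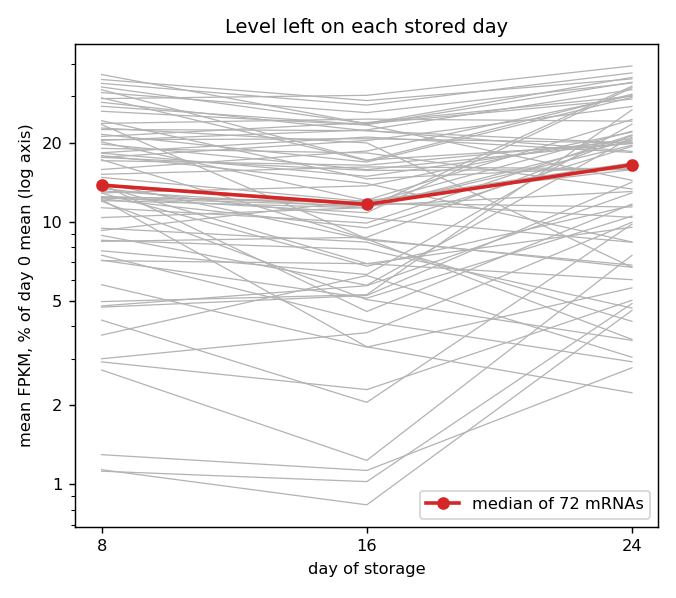
Mean FPKM on days 8, 16 and 24 as a percentage of the day 0 mean (log axis) is drawn as 1 grey line for each of the 72 mRNAs, with their median in red. The median was 13.8%, 11.6% and 16.5% on the 3 days, and single mRNAs ran from 0.836% to 39.2%.

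In the 6 lowered mRNAs with the highest day 0 level, the loss by day 8 is fixed by the rule, but what followed differed. EVM0003642 led with 2832, 1153 and 852 FPKM in the day 0 replicates. It had 59.4, 67.6 and 104 FPKM on day 8, 67.4, 147 and 61.2 on day 16, and 237, 237 and 148 on day 24. All 3 of its day 24 values were above all of its day 8 and day 16 values. EVM0007339 behaved likewise, with 1023, 891 and 527 FPKM on day 0, 61.4, 59.8 and 105 on day 8, 98.9, 117 and 79.1 on day 16, and 191, 202 and 205 on day 24.

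EVM0005041, second in level, kept falling. Its FPKM was 1637, 1412 and 1124 on day 0, 174, 356 and 189 on day 8, 55.9, 150 and 153 on day 16, and 56.5, 62.8 and 29.5 on day 24. The day 24 values overlapped with day 16, through its replicate 1, and lay below all of day 8. EVM0012741 had 660, 508 and 739 FPKM on day 0, 51.5, 158 and 18.9 on day 8, 22.1, 58.1 and 16.2 on day 16, and 28.9, 19.4 and 19.2 on day 24. Its stored days overlapped, and replicate 2 was its highest library on both day 8 and day 16.

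EVM0001878 had the least left of these 6 on days 8 and 16, with 486, 399 and 757 FPKM on day 0, 31.7, 9.23 and 3.80 on day 8, 5.05, 6.44 and 8.77 on day 16, and 40.4, 52.7 and 29.2 on day 24. Its day 16 mean was 1.23% of its day 0 mean and its day 24 mean 7.45%. EVM0002865 had the most left of the 6 on day 8 (19.0%), with 912, 318 and 356 FPKM on day 0, 81.3, 132 and 88.0 on day 8, 55.5, 153 and 81.2 on day 16, and 76.7, 69.5 and 65.0 on day 24. Its day 24 values lay below all of day 8 and within the range of day 16, and neither difference was called.

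The gap between the groups was widest in EVM0007935, EVM0000097 and EVM0003453, whose lowest day 0 library was 11.5, 11.3 and 10.2 times their highest stored library. EVM0007935 had 77.8, 183 and 76.4 FPKM on day 0, 3.55, 4.56 and 1.75 on day 8, 2.52, 2.99 and 2.22 on day 16, and 4.49, 6.64 and 5.78 on day 24. EVM0000097 had 352, 208 and 372 FPKM on day 0, 6.78, 2.80 and 0.887 on day 8, 2.06, 2.65 and 4.83 on day 16, and 16.1, 18.3 and 11.1 on day 24. EVM0003453 had 218, 242 and 80.2 FPKM on day 0 and 1.32 to 7.86 in the 9 stored libraries. In all 3 of these mRNAs the day 24 mean was the highest of the stored means, yet at 5.02%, 4.88% and 2.78% of the day 0 mean it was still far from the fresh level.

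The next widest gaps were those of EVM0001878 (7.58 times), EVM0005697 (6.76 times) and EVM0005853 (5.06 times). EVM0005697 was a less abundant mRNA, with 57.7, 39.4 and 42.6 FPKM on day 0, 2.28, 2.35 and 1.26 on day 8, 0.550, 1.48 and 0.839 on day 16, and 2.32, 5.82 and 5.53 on day 24. EVM0005853 had 524, 725 and 228 FPKM on day 0, 39.7, 45.1 and 25.4 on day 8, 12.5, 11.7 and 37.5 on day 16, and 15.9, 15.1 and 12.3 on day 24, so that day 24 lay below all of day 8. Over the 72 mRNAs the gap had a median of 2.57 times, and for 48 of them it was under 3 times.

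At the ratio of 0.5 the nearest values inside and outside lay close together. Just inside stood EVM0007168 (lowest day 0 library 83.0 FPKM, highest stored library 41.4, ratio 0.499) and EVM0009896 (26.4 and 13.2, ratio 0.498). Just outside stood EVM0012311 (76.7 and 38.6, ratio 0.503) and EVM0007508 (13.1 and 6.63, ratio 0.505). Of mean FPKM, EVM0005241 was the lowest inside at 10.2 and EVM0012247 the nearest outside at 9.14. At the upper end EVM0003642 was the highest inside at 497, and EVM0000206 the nearest outside at 1771, with a wide gap between them. EVM0000206 had a lowest day 0 library of 3713 FPKM and a highest stored library of 569.

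The same thresholds turned round, with the lowest stored library at least 2 times the highest day 0 library, were met by 88 mRNAs. No identifiers were left out of that count, and the lowered mRNAs would number 73 if none were left out of theirs. Rises and falls of this kind therefore took up similar shares of the window of mean FPKM (0.901% lowered and 1.10% raised of 7988 mRNAs).

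Membership rested heavily on the spread of the day 0 libraries. The highest day 0 library of a lowered mRNA was 1.04 to 10.5 times its lowest (median 1.87 times), under 1.5 times in 22 mRNAs and at least 3 times in 14. Replicate 2 was the lowest day 0 library in 34 of the 72 and replicate 3 in another 34, but replicate 1 in 4. Over the mRNAs of the same window, replicates 1, 2 and 3 were lowest in 28.3%, 40.2% and 31.4%. Without day 0 replicate 2, 198 mRNAs would have met the rule, and without replicate 3, 139, so that these libraries set how long the list is.

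Against the mean of replicates 1 and 3 on the log2 scale, replicate 2 of day 0 ranged from -1.99 to 1.45 among the lowered mRNAs (median -0.17, against 0.01 over the window). It was more than 1 below in 12 mRNAs and more than 1 above in 6. EVM0008772 and EVM0008134 had the lowest replicate 2 in this measure. EVM0008772 had 91.2, 20.4 and 71.7 FPKM on day 0, 3.31, 2.59 and 2.77 on day 8, 2.504, 3.10 and 4.01 on day 16, and 9.88, 8.34 and 7.70 on day 24. EVM0008134 had 153, 42.4 and 171 FPKM on day 0, 4.53, 3.79 and 2.69 on day 8, 5.72, 3.14 and 4.99 on day 16, and 9.05, 13.1 and 14.3 on day 24. In both, day 24 lay above all libraries of days 8 and 16.

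The 6 ergosterol mRNAs that the study names, which the rule leaves out and which the study chose on these samples, all had a low day 0 replicate 2. Ergosterol is the main sterol of fungal membranes. Replicate 2 was the lowest day 0 library in 6 of the 6, by -2.46 to -1.45 on the log2 scale, against 34 of the 72 lowered mRNAs. The thresholds were met by 0 of the 6, with a highest stored library at 0.593 to 1.07 times the lowest day 0 library. The level left in these 6 was 12.1% to 36.1% on day 8, 9.63% to 35.2% on day 16 and 14.7% to 27.3% on day 24. On days 8 and 24 this lay within the range of the 72. On day 16 its upper end exceeded the highest of the 72, which was 30.3%.

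**Figure D3:**
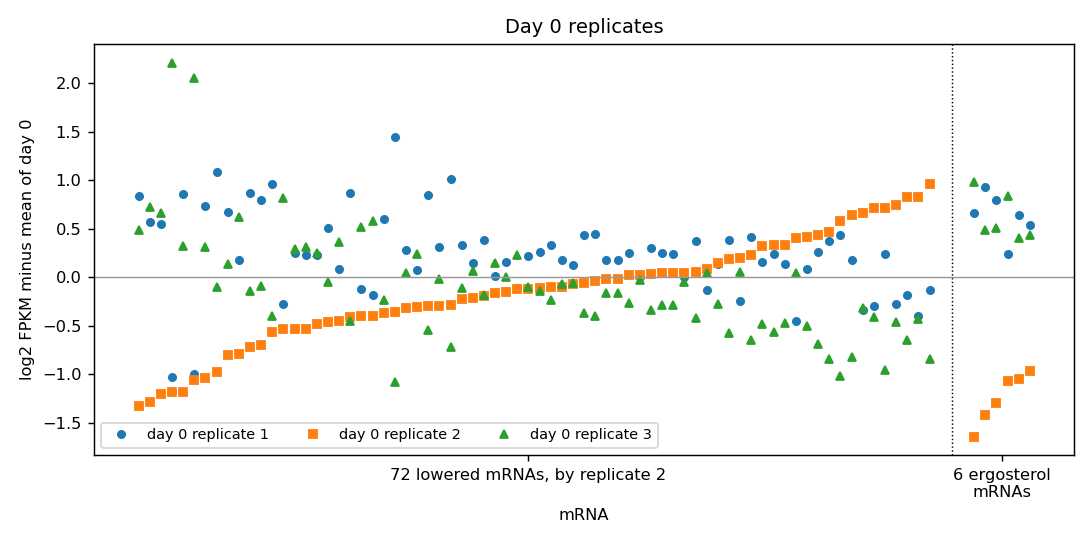
The 3 day 0 libraries of each lowered mRNA are plotted as log2 FPKM minus their mean, with the mRNAs ordered from the lowest to the highest replicate 2, and the 6 ergosterol mRNAs stand at the right. Replicate 2 lay below replicates 1 and 3 in 34 of the 72 mRNAs and in 6 of the 6 ergosterol mRNAs.

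A pair of lowered mRNAs, named after their values were seen, stood apart by day 0 replicate 3. EVM0007882 had 115, 104 and 1088 FPKM on day 0 and EVM0007980 had 30.3, 29.0 and 251. These were the only 2 of the 72 in which replicate 3 was at least 5 times both other replicates, against 0.325% of the mRNAs in the window. They also shared a wide spread among stored libraries. EVM0007882 had 11.9, 2.23 and 0.707 FPKM on day 8, 0.593, 2.30 and 8.02 on day 16, and 8.34, 48.3 and 3.46 on day 24. EVM0007980 had 13.1, 3.91 and 0.855 FPKM on day 8, 0.543, 2.18 and 7.60 on day 16, and 3.94, 11.4 and 2.03 on day 24. The high and low replicates of each day were the same in both mRNAs.

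In another set it was day 8 that varied. Replicate 2 of day 8 was at least 2 times both other day 8 libraries in 5 of the 72, namely EVM0004190, EVM0009318, EVM0010265, EVM0012741 and EVM0013078, and in 0.663% of the mRNAs in the window. All but EVM0012741 and EVM0013078 were named after their values were seen. EVM0013078 is among the mRNAs that were also measured by RT-qPCR in the study. Its FPKM was 322, 268 and 207 FPKM on day 0, 27.0, 67.5 and 17.7 on day 8, 16.8, 29.7 and 21.5 on day 16, and 19.7, 13.7 and 21.1 on day 24. EVM0009318 had 327, 445 and 402 FPKM on day 0, 32.9, 101 and 26.7 on day 8, 21.0, 43.5 and 16.8 on day 16, and 29.5, 17.8 and 23.3 on day 24. In both, the stored days overlapped, and replicate 2 was the highest library on day 16 too.

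Some lowered mRNAs settled at a nearly constant stored level. The smallest spread over the 9 stored libraries was that of EVM0004603 (SD 0.15 of log2(FPKM + 1)) and EVM0005227 (SD 0.17). EVM0004603 had 110, 39.0 and 59.5 FPKM on day 0 and then 8.44, 9.99 and 7.51 on day 8, 8.76, 8.29 and 7.79 on day 16, and 7.73, 7.19 and 6.74 on day 24. EVM0005227 had 62.0, 54.3 and 49.0 FPKM on day 0, 22.3, 18.5 and 16.7 on day 8, 16.1, 15.5 and 16.3 on day 16, and 21.2, 18.4 and 18.2 on day 24. For neither was a difference between stored days called, although day 24 lay below all of day 16 in EVM0004603 and above all of day 16 in EVM0005227.

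Whether the level moved once storage had begun is a question that the rule left largely open, since it compares stored with fresh libraries and not the stored days with each other. It does cap every stored value at 0.5 times the lowest day 0 library, which limits how far day 24 could rise. The stored days were compared with limma on log2(scaled FPKM + 1), where scaled means divided by a factor per library of 0.983 to 1.02. The fit covered the 10962 mRNAs that passed the filter, in all 12 libraries, and an mRNA was called where the Benjamini-Hochberg adjusted p was under 0.05 and the log2 fold change was 1 or more, up or down. In read error rate, the study's sequencing summary sets the libraries of days 8 and 16 apart from those of days 0 and 24. For day 24 against day 8 or day 16, the day of storage and read quality thus cannot be told apart. The same holds for the fall from day 0 to days 8 and 16. The share of reads aligned to a single place was lower on days 8 and 24 than on days 0 and 16. That share cannot be told apart from day of storage in day 16 against day 8 or day 24 against day 16. Nor can it be for the fall from day 0 to days 8 and 24.

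Between day 8 and day 24 some of the lowered mRNAs came up again and others went further down. Against day 8, 11 of the 72 were called higher on day 24 (15.3%, against 12.9% of all mRNAs tested and 15% of those in the window of mean FPKM) and 5 were called lower (6.94%, against 10.7% and 11.8%). The share of rises was thus near that of all mRNAs. All 3 day 24 libraries were above all 3 day 8 libraries in 22 of the 72 (30.6%, against 26.8% of all tested and 29.1% of the window) and below them in 10 (13.9%, against 26.8% and 28.5%). The median log2 fold change was 0.18, against 0.01 over all mRNAs tested, and it was -0.06 without day 8 replicate 3. The rises numbered 7 without day 8 replicate 2 and 7 without day 24 replicate 2. The falls numbered 3 without day 8 replicate 1, without day 8 replicate 2, without day 24 replicate 2 or without day 24 replicate 3. Without day 8 replicate 3 there were 8 rises and 10 falls, so that which of them were more numerous turned on this library.

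Against day 16, 10 of the 72 were called higher on day 24 (13.9%, against 9.61% of all mRNAs tested and 11.3% of the window) and 2 were called lower (2.78%, against 8.96% and 10.1%). All 3 day 24 libraries were above all 3 day 16 libraries in 32 of the 72 (44.4%, against 29.9% of all tested and 33.5% of the window) and below them in 5 (6.94%, against 27.4% and 28.6%). The median log2 fold change was 0.38, against 0.01 over all mRNAs tested. Both comparisons use the same day 24 libraries. In 8 mRNAs day 24 was called higher against both earlier days, in 2 it was called lower against both, and 54 of the 72 were called in neither comparison. These joint counts were not made over all mRNAs tested, so whether they set the 72 apart cannot be said. The 2 falls were 1 or 0 without any 1 of the 12 libraries except day 8 replicate 2, without which they were 2.

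**Figure D4:**
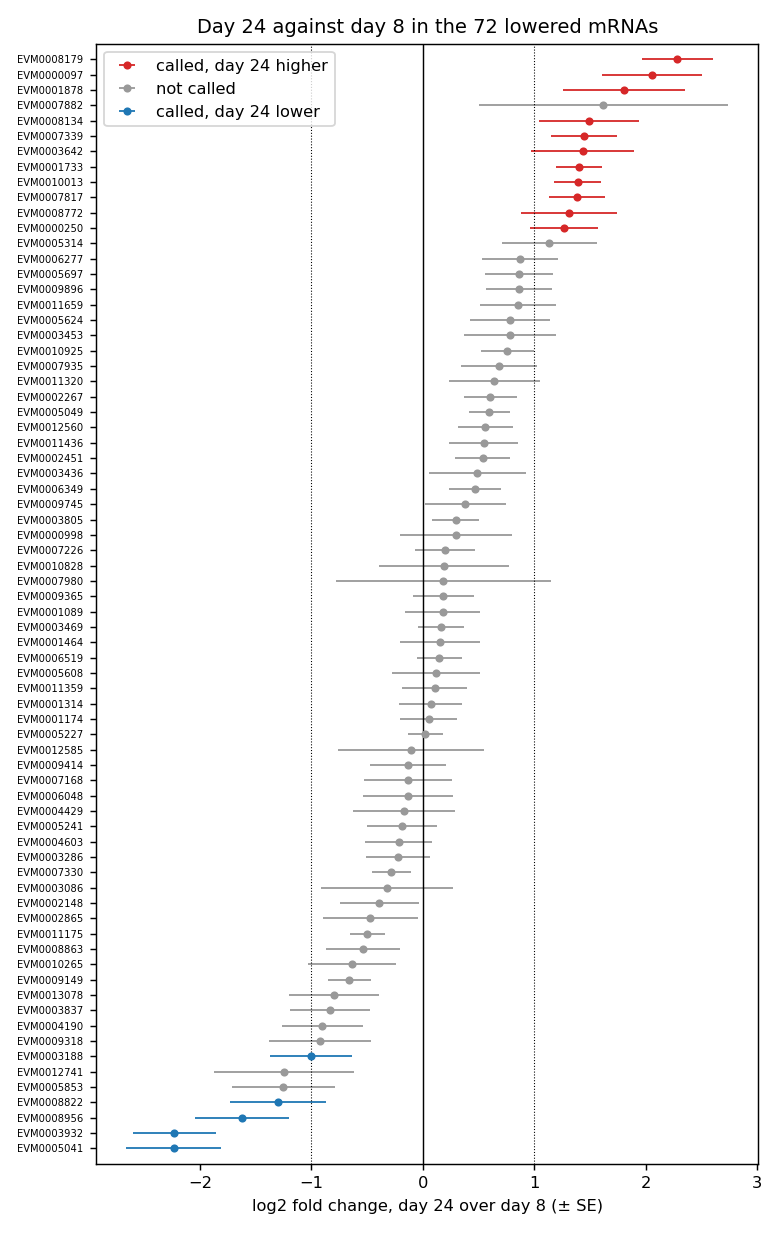
The log2 fold change of day 24 over day 8 from limma is plotted with its standard error for each of the 72 lowered mRNAs, which run from the largest rise at the top to the largest fall at the bottom. The 11 called rises (red) lie between 1.27 and 2.28, the 5 called falls (blue) between -2.24 and -1.01, and dotted lines mark a log2 fold change of 1 in either direction.

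EVM0008179 rose the most between day 8 and day 24. It had 191, 97.3 and 130 FPKM on day 0, 4.87, 8.20 and 7.70 on day 8, 7.66, 10.02 and 4.39 on day 16, and 45.5, 32.2 and 33.7 on day 24. The groups of day 24 and of days 8 and 16 did not overlap. Its log2 fold change was 2.28 against day 8 (standard error 0.32, limma adjusted p = 0.000244) and 2.22 against day 16 (standard error 0.32, limma adjusted p = 0.000379). The day 24 mean was 26.7% of the day 0 mean, after 4.97% on day 8.

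EVM0000097 and EVM0001878, whose values are given above, rose by 2.06 and 1.80 on the log2 scale against day 8 (limma adjusted p 0.00406 and 0.0219) and by 1.96 and 2.40 against day 16 (limma adjusted p 0.00651 and 0.00625). For EVM0001878 the call against day 8 was lost when only these 2 groups were fitted and without day 8 replicate 2, day 8 replicate 3, day 24 replicate 1 or day 24 replicate 2 (adjusted p up to 0.0764). Its day 8 replicate 1, at 31.7 FPKM, lay within the range of its day 24 values. EVM0005697 rose by 1.45 against day 16 (standard error 0.31, limma adjusted p = 0.00408) and by 0.86 against day 8, which is under the fold change required.

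The abundant EVM0003642 and EVM0007339 rose by 1.43 and 1.45 against day 8 (limma adjusted p 0.0289 and 0.00258). EVM0007339 also rose by 1.01 against day 16 (limma adjusted p = 0.0211), and EVM0003642 had 1.23 there (limma adjusted p = 0.0616). The call of EVM0003642 against day 8 was lost with quantile normalization and without day 8 replicate 1, day 8 replicate 2, day 24 replicate 1 or day 24 replicate 2 (adjusted p up to 0.0954). That of EVM0007339 against day 16 was lost with quantile normalization and without day 16 replicate 1, day 16 replicate 3 or any 1 of the day 24 replicates (adjusted p up to 0.0864).

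EVM0008134 and EVM0008772 rose by 1.49 and 1.31 against day 8 (limma adjusted p 0.0207 and 0.0309). The call of EVM0008134 was lost without day 8 replicate 2, day 8 replicate 3, day 24 replicate 2 or day 24 replicate 3 (adjusted p up to 0.0690), and that of EVM0008772 without any 1 of the day 8 or day 24 replicates (adjusted p up to 0.0898).

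Among the rises with the smallest errors were 3 mRNAs named after their values were seen. EVM0007817 had 174, 181 and 150 FPKM on day 24, against 56.8, 62.3 and 73.5 on day 8 and 48.1, 64.4 and 56.0 on day 16. EVM0001733 had 47.9, 63.3 and 43.5 FPKM on day 24, against 21.5, 19.8 and 15.4 on day 8 and 18.6, 18.4 and 16.3 on day 16. EVM0010013 had 9.64, 14.7 and 13.2 FPKM on day 24, against 3.96, 3.60 and 4.80 on day 8 and 3.19, 3.80 and 3.07 on day 16. Relative to day 8 they rose by 1.39, 1.40 and 1.39 on the log2 scale (standard errors 0.25, 0.21 and 0.21, limma adjusted p 0.00131, 0.000384 and 0.000422). The day 24 means were 32.4%, 32.8% and 23.5% of the day 0 means. Of the 11 rises against day 8, 7 were called under all 20 alternatives tried, these 3 among them, and of the 10 against day 16, 8 were.

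**Figure D5:**
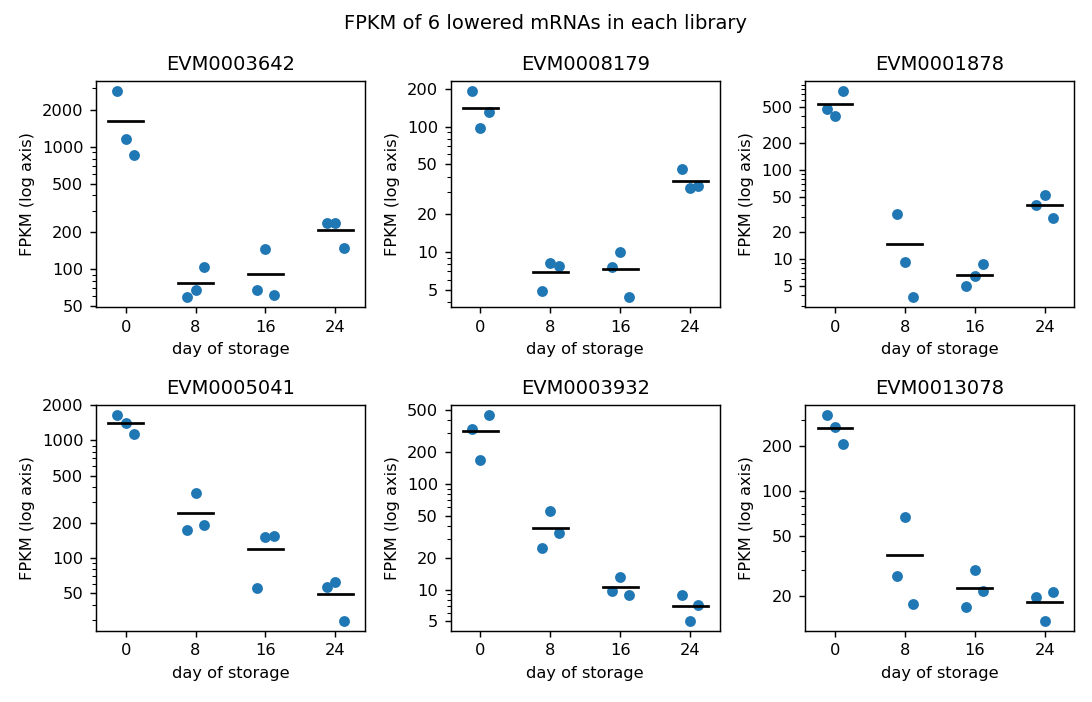
FPKM (log axis) of 6 lowered mRNAs is shown by day of storage, with 1 point per library and a line at the mean of 3 libraries. The upper 3 (EVM0003642, EVM0008179 and EVM0001878) had their highest stored mean on day 24, and the lower 3 (EVM0005041, EVM0003932 and EVM0013078) their lowest.

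The mRNAs that went further down were led by EVM0005041 and EVM0003932. EVM0003932 had 329, 169 and 448 FPKM on day 0, 24.7, 55.7 and 34.5 on day 8, 9.59, 13.2 and 8.81 on day 16, and 8.81, 5.09 and 7.21 on day 24. Against day 8 its day 24 level fell by 2.23 on the log2 scale (standard error 0.37, limma adjusted p = 0.000776), and that of EVM0005041 by 2.24 (standard error 0.43, limma adjusted p = 0.00178). Day 24 and day 8 did not overlap in either. By day 24 they had 2.23% and 3.57% of their day 0 means left.

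EVM0008956 and EVM0008822 fell too, with log2 fold changes of -1.63 and -1.3 against day 8 (limma adjusted p 0.0103 and 0.0319). EVM0008956 had 214, 124 and 220 FPKM on day 0, 19.2, 57.9 and 53.8 on day 8, 15.2, 21.3 and 11.6 on day 16, and 17.6, 8.45 and 11.4 on day 24. EVM0008822 had 47.9, 53.8 and 30.9 FPKM on day 0, 12.3, 14.4 and 3.42 on day 8, 8.46, 12.03 and 5.97 on day 16, and 4.00, 2.65 and 2.24 on day 24. Its day 24 and day 8 values overlapped through day 8 replicate 3. The call of EVM0008822 against day 8 was lost when only these 2 groups were fitted and without day 8 replicate 1, day 8 replicate 2, day 24 replicate 2 or day 24 replicate 3 (adjusted p up to 0.129).

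The 2 falls against day 16 were those of EVM0008822 (-1.3, limma adjusted p = 0.0375) and EVM0005041 (-1.20, limma adjusted p = 0.0495), both close to the threshold. The first was lost under 6 of the 20 alternatives (adjusted p up to 0.132) and the second under 12 of them (adjusted p up to 0.191). Those that lost the first were no filter, and leaving out day 16 replicate 1, day 16 replicate 2 or any 1 of the day 24 replicates. The second was lost with no filter, with no scaling and without any 1 library except day 8 replicate 2 and day 16 replicate 1.

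Between day 8 and day 16 no lowered mRNA was called by limma, as no mRNA of the whole table was (0% of 10962 in either direction). At an unadjusted p under 0.05, 7 of the 72 were lower and 0 higher on day 16, while of all 10962 mRNAs tested 180 were lower and 357 higher. All 3 day 16 libraries were below all 3 day 8 libraries in 9 of the 72 (12.5%, against 5.97% of all mRNAs tested and 6.4% of the window) and above them in 0 (against 5.8% and 6.35%). The largest difference was that of EVM0003932, at -1.69 (standard error 0.37, limma adjusted p = 0.709). The lowest of the 3 stored means was on day 8 in 16 of the 72, on day 16 in 36 and on day 24 in 20, where the mRNAs of the window had 30.4% on day 8, 25.5% on day 16 and 44.1% on day 24. The highest was on day 8 in 26, on day 16 in 5 and on day 24 in 41, and the window had 35.6%, 18.2% and 46.2%, so that day 24 was the commonest day there too.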

How the data were processed

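Libraries that keep the strand were made by the authors from RNA freed of ribosomal RNA. Tools named by the submitters are cutadapt 2.7 (trimming), FastQC 0.11.8 (read quality), HISAT2 2.1.0 (alignment) and StringTie 1.3.3b (FPKM). The deposited FPKM tables (13103 mRNAs and 1003 lncRNAs, 1 column per library) were used as they are, and columns were matched to days and replicates by name. Counts were not used, so the count test of the study was not repeated. For the tests, each library was scaled by its median-of-ratios factor, the 10962 mRNAs with 1 FPKM or more in 3 or more libraries were kept (2141 removed), and log2(scaled FPKM + 1) was fitted with limma 3.58.1 in R 4.3.3, with day as a factor and a mean-variance trend. Fold changes on this scale understate those of low genes.

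The members, lists and tests were chosen with earlier results of these data known. Named are the mRNAs highest on day 0, with the widest gap, with the largest called changes between days 8 and 24, at the thresholds, with the lowest day 0 replicate 2, with the steadiest stored level, and measured by RT-qPCR in the study; others are said to be chosen later. The reference gene table held 0 of the identifiers, and no names, positions or sequences are given for this reason. The tests were repeated without scaling, with quantile normalization, with 0.1 as pseudocount, unfiltered, filtered at a mean FPKM of 5, on only the 2 groups compared, with a replicate block, without the trend and with each library left out. Figures were drawn with matplotlib 3.10.9.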

Additional observations from a re-analysis of the deposited data

Results flagged for a closer look

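Day 24 differed from day 8 by limma in 16 of the lowered mRNAs, which are the same calls as those reported above. They were 11 rises (15.3%, against 12.9% of all mRNAs tested) and 5 falls (6.94%, against 10.7%). Day 24 was higher by 2.28 on the log2 scale in EVM0008179, 2.06 in EVM0000097, 1.80 in EVM0001878, 1.49 in EVM0008134, 1.45 in EVM0007339, 1.43 in EVM0003642, 1.40 in EVM0001733, 1.39 in EVM0010013, 1.39 in EVM0007817, 1.31 in EVM0008772 and 1.27 in EVM0000250. It was lower in EVM0005041 (-2.24), EVM0003932 (-2.23), EVM0008956 (-1.63), EVM0008822 (-1.30) and EVM0003188 (-1.01), and the last was lost under 13 of 20 alternatives (adjusted p up to 0.142).

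Day 24 differed from day 16 in 12, again the calls reported above. They were 10 rises (13.9%, against 9.61% of all mRNAs tested) and 2 falls (2.78%, against 8.96%). Day 24 was higher by 2.40 in EVM0001878, 2.22 in EVM0008179, 1.96 in EVM0000097, 1.66 in EVM0005314, 1.61 in EVM0010013, 1.55 in EVM0007817, 1.46 in EVM0001733, 1.45 in EVM0005697, 1.17 in EVM0000250 and 1.01 in EVM0007339. It was lower in EVM0008822 (-1.30) and EVM0005041 (-1.20). EVM0005314 lost its call without day 16 replicate 2 (adjusted p = 0.0521). EVM0000250, EVM0003188 and EVM0005314 were named after their values were seen.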

How the results depend on the processing

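The length of the list depended on the rule. It held 40 mRNAs at a ratio of 0.4 and 127 at 0.6, 86 from a mean FPKM of 5, 76 on scaled and 70 on quantile-normalized FPKM, and 72 to 198 with 1 library left out. For the same 72 mRNAs, leaving out 1 library gave 7 to 12 rises and 3 to 10 falls on day 24 against day 8, 9 to 12 rises and 0 to 2 falls against day 16, and 0 in both directions for day 16 against day 8. The 2 falls against day 16 became 0 with no filter and 1 with no scaling, and all other counts stayed within 1.5 times of those reported under the alternatives that keep all 12 libraries. No called difference turned its direction under any of the 20 alternatives.

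Same-numbered replicates of different days did not deviate together. The correlation of their deviations from the day means was -0.37 to 0.35 over 18 pairs, over 0.1 in 4, and 6 of 12 libraries correlated best with their own number, so the numbers were not taken as pairs. With the replicate block, 12 rises and 5 falls against day 8 and 11 rises and 2 falls against day 16 were called, with 0 for day 16 against day 8. Without read counts, the counting error of low values such as those under 1 FPKM is unknown.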

Other observations

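The same thresholds on the lncRNA table, with no identifiers left out, were met by 10 lncRNAs, which is 1.26% of the 795 in the window of mean FPKM. Their mean FPKM had a median of 75.0 in fresh fruiting bodies, 9.47 by day 8, 9.25 by day 16 and 15.4 by day 24. As for the mRNAs, the rule fixes the fall from day 0, and no test was run. EVM0005628 is another mRNA with RT-qPCR values in the study. Its highest stored library was 0.639 times its lowest day 0 library, so it missed the rule. It had 271, 141 and 237 FPKM on day 0, 50.6, 46.8 and 33.9 on day 8, 50.7, 44.0 and 48.1 on day 16, and 70.8, 89.9 and 77.4 on day 24, so that all stored values were below all day 0 values and day 24 was above days 8 and 16.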
